A study of Homo sapiens with 6 samples.

Results

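The genes of the proteasome were examined in SW480, a human cell line established from a colorectal adenocarcinoma, after exposure to Amuc_0904 or to buffer. They were taken as every gene of the deposited table whose symbol is PSM, a letter from A to G and a number, which gave 48 of 60664 genes. The wild type cells were given Amuc_0904 (3 libraries) or buffer (3 libraries), and the labels state neither a dose nor an exposure time. Amuc_0904 is written like a gene name of Akkermansia muciniphila, a bacterium of the gut mucus, and nothing more is said of the preparation. The labels do not say whether the libraries came from separate cultures, so p-values measure only the spread between these libraries, which may be technical.

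The proteasome is the protease complex that degrades proteins tagged with ubiquitin. Its 20S core is a barrel of alpha rings around beta rings, and 3 beta subunits carry the active sites (PSMB6, PSMB7 and PSMB5). Its 19S cap holds the ATPases that unfold substrates (PSMC genes) and the subunits that bind and remove ubiquitin (PSMD genes). Interferons and other inflammatory signals induce the alternative catalytic subunits PSMB9, PSMB10 and PSMB8, which replace PSMB6, PSMB7 and PSMB5 in the immunoproteasome, and PSME1 and PSME2, which form the PA28 alpha/beta cap. These inducible proteins shape the peptides that MHC class I molecules display. The comparison asked whether those 5 inducible genes and the 43 other proteasome genes differed between cells given Amuc_0904 and cells given buffer.

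Promoter windows of the 5 inducible genes are shown because 4 of them hold the same string of letters near the start. RefSeq windows on GRCh38.p14, from 250 bases before to 50 bases after a gene's start, were on hand for 42 of the 48 genes (51 windows). The interferon-stimulated response element (ISRE) is the site bound by interferon regulatory factors. Its core was searched on both strands as GAAA, any 2 bases and GAAA, and it lay in 3.57% of 35116 human windows. It was found in 4 of the 5 inducible genes (PSMB8, PSMB10, PSME1 and PSME2) and in 3 of the 37 other proteasome genes with a window (PSMA4, PSMB4 and PSMG4). Capitals mark the ISRE match in each sequence, written 5′ to 3′ on the gene's strand.
PSMB8, chr6:32843998-32844297, minus strand: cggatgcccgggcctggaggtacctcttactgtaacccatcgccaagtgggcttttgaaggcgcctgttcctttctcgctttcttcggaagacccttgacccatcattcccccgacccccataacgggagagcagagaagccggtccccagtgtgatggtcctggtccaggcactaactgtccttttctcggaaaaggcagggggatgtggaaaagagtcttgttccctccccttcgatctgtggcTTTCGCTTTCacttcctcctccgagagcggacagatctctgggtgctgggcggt
PSMB9, chr6:32853942-32854241, plus strand: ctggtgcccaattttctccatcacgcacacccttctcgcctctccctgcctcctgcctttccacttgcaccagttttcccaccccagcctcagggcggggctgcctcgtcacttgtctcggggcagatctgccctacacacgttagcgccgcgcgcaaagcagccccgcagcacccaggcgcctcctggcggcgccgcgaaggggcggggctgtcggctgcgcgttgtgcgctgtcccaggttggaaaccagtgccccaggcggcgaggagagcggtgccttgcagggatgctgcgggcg
PSMB10, chr16:67936801-67937100, minus strand: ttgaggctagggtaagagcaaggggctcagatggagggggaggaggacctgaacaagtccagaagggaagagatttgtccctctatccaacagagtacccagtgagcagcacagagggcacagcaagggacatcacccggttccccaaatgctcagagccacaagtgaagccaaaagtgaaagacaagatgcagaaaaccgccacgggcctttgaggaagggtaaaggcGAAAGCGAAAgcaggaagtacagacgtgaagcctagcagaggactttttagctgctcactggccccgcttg
PSME1, chr14:24135944-24136243, plus strand: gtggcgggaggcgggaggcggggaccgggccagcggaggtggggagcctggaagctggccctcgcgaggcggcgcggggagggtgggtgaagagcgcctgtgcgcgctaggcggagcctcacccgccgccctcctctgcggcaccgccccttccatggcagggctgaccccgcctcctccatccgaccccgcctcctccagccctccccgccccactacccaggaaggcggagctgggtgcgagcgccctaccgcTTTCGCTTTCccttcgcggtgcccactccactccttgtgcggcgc
PSME2, chr14:24146561-24146860, minus strand: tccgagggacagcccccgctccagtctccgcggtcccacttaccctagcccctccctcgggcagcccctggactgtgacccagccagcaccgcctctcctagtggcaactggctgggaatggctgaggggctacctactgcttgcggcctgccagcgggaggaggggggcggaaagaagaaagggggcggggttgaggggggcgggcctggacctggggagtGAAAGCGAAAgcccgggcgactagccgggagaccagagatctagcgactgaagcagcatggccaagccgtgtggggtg

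The 4 matches were the same letters, GAAAGCGAAA, read forward in PSMB10 and PSME2 and as TTTCGCTTTC in PSMB8 and PSME1. That exact string, picked after the matches were seen, was in 35 of the 35116 windows (0.0997%), PSMG4 among them. Its first base lay 28 bases before the start of PSME2, 21 before that of PSMB10, 4 before that of PSMB8 and 6 after that of PSME1. PSMB8 has a second window, with no match. Of the other motifs searched on both strands, the interferon-gamma activated site TTCNNNGAA was in PSMB8 and in 7 of the 37 other genes, against 7.66% of all windows. An NF-kB site, searched as GGGA, any base and TTTCC, was in none of the 42 genes and in 0.558% of all windows. TGACNNNGC, the antioxidant response element through which NFE2L1 acts on proteasome genes, was in PSMB9, PSME1 and PSME2 and in 12 of the 37 others, against 13.3%. The CCAAT box was in PSMB9 and in 19 of the 37 others, against 34.6%. No motif overlapped an ISRE match in these 5 windows. These matches describe letters only.

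Values are TPM, a share of each library scaled by transcript length, so levels of different genes can be compared. TPM keeps no read number, so the depth behind each value is unknown. Of the 48 genes, 47 reached at least 1 TPM in at least 3 libraries and were tested. PSMB11, the thymus-specific catalytic subunit, was listed at 0 in all 6 libraries. The levels of the tested genes spanned a wide range in buffer libraries. PSMA7 (an alpha ring subunit) was highest at 865 ± 61.5 TPM, and PSMA8, the testis form of PSMA7, lowest at 16.8 ± 0.217 TPM (SD, n = 3). The inducible catalytic genes were near the low end, with 33.5 ± 2.31 TPM for PSMB9, 64.3 ± 1.51 TPM for PSMB8 and 66.0 ± 1.56 TPM for PSMB10 in buffer libraries. Their constitutive counterparts were at 390 ± 19.3 TPM (PSMB6), 208 ± 8.68 TPM (PSMB5) and 370.5 ± 20.6 TPM (PSMB7) in the same libraries.

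Of the 47 tested genes 0 passed the threshold, a limma p of 0.05 adjusted by Benjamini-Hochberg over 14421 genes, which 1.37% of all tested genes passed. At an unadjusted limma p under 0.05, 10 were higher in Amuc_0904 libraries and 2 lower, against 4.49% of all tested genes higher and 16.3% lower. In 12 of the 47 all Amuc_0904 libraries lay above all buffer libraries (7.00% of all genes), in 3 all lay below (20.1%), and in 32 the groups overlapped. The 10 higher genes were 4 of the 5 inducible genes (PSMB8, PSMB9, PSMB10 and PSME2), the alpha ring genes PSMA1, PSMA3, PSMA4 and PSMA5, the beta ring gene PSMB7 and the 19S gene PSMD14. The 2 lower genes were PSMD3, a 19S scaffold subunit, and PSMF1, which encodes the inhibitor PI31. No other proteasome gene had an unadjusted p under 0.05, and the median log2 fold change was 0.03 over the 47 genes and -0.06 over all tested genes. Log2 fold changes were positive in 59.6% of the 47 genes and in 37.5% of all tested genes.

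**Figure D1:**
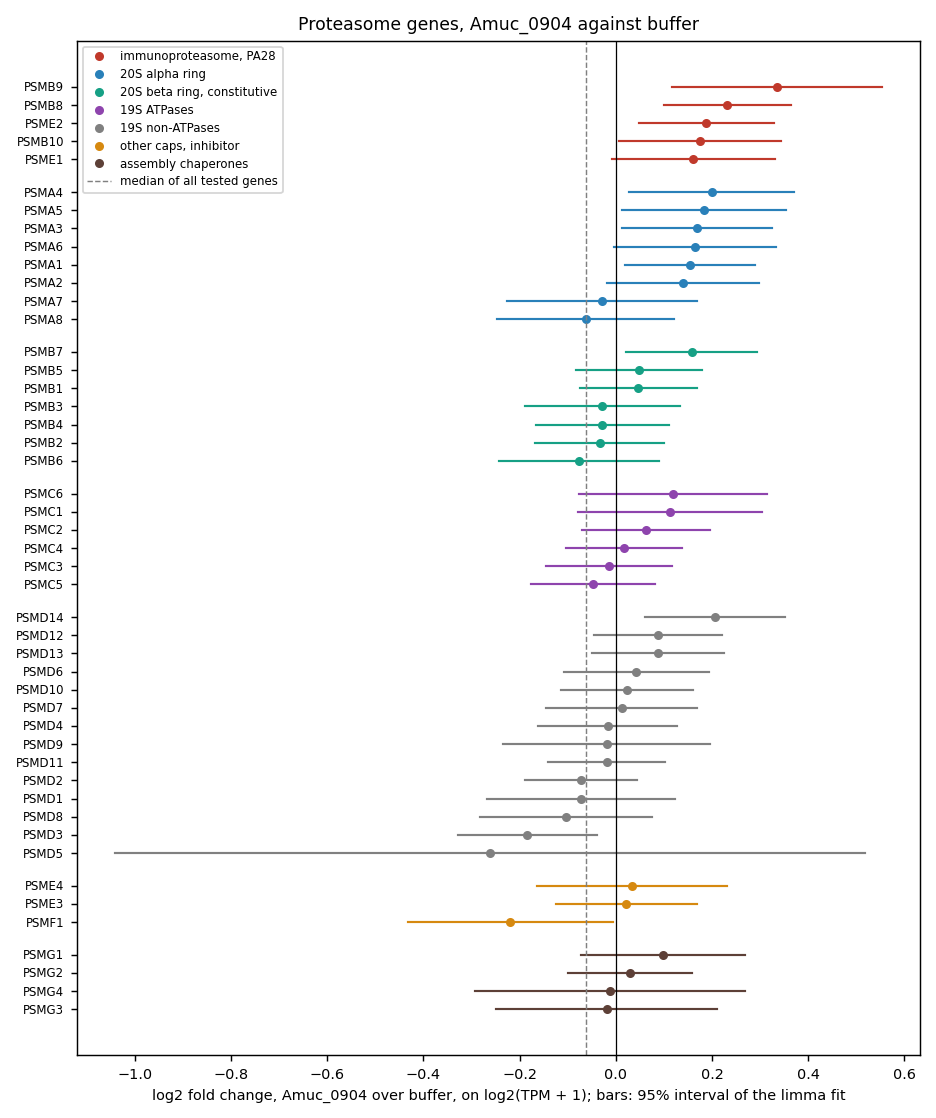
Log2 fold change of each tested proteasome gene, Amuc_0904 over buffer on the log2(TPM + 1) scale, grouped by role; points are limma estimates, bars their 95% intervals, and the dashed line the median of all tested genes. The 5 inducible genes at the top lie between 0.16 and 0.34, and PSMD5 has the widest interval.

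Some properties of the libraries moved with the groups. The slope of log2 expression with transcript GC content ran from -0.00428 to 0.00713 per percent GC in Amuc_0904 libraries and from 0.00737 to 0.0162 in buffer libraries. GC removal below means that each library's GC trend was taken out before the fit. Of 6 colorectal epithelial markers, EPCAM, KRT8, KRT18, KRT19 and CDX2 passed the filter of the test and VIL1 did not. The 6 summed to between 7088 and 7377 TPM in Amuc_0904 and between 7900 and 8142 TPM in buffer libraries. Of 5 lymphocyte markers PTPRC, CD2 and MS4A1 were listed at 0 throughout, and the sums were between 0.11 and 0.34 TPM in Amuc_0904 and between 0.30 and 1.15 TPM in buffer libraries. Of 5 fibroblast markers DCN was listed at 0, with sums between 1.71 and 2.22 TPM in Amuc_0904 and between 2.32 and 3.75 TPM in buffer libraries. Of 4 endothelial markers KDR was listed at 0, with sums between 0.16 and 0.54 TPM in Amuc_0904 and between 0.25 and 0.80 TPM in buffer libraries. The 5 myeloid markers summed to between 5.48 and 6.16 TPM in Amuc_0904 and between 3.16 and 3.70 TPM in buffer libraries, and none of the 5 was listed at 0 in every library. The part of these marker differences in the results was not tested.

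The inducible genes were the group with the highest median log2 fold change. All 5 had positive log2 fold changes (37.5% of all tested genes did), and 0 passed the adjusted threshold (1.37% of all tested genes did). In 4 of the 5 all Amuc_0904 libraries lay above all buffer libraries, as in 7.00% of all tested genes. Their median log2 fold change was 0.19, against 0.02 for the 42 other tested proteasome genes. Among those 42, the 8 alpha ring genes came close, with a median of 0.16. A higher level per cell and a larger share of cells with the transcript cannot be told apart in bulk RNA.

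PSMB8 encodes the inducible chymotrypsin-like subunit. It was at 77.4, 75.5 and 74.0 TPM in Amuc_0904 replicates 1 to 3, against 63.3, 63.5 and 66.0 TPM in buffer replicates 1 to 3. The groups lay apart, with a gap wider than the range within either group. The mean was 75.6 ± 1.70 TPM in Amuc_0904 and 64.3 ± 1.51 TPM in buffer libraries, a 1.18-fold ratio (log2 fold change 0.23, SE 0.06, 95% interval 0.10 to 0.36, limma adjusted p = 0.083). PSMB8 passed the threshold after GC removal, with a log2 fold change of 0.27 and a limma adjusted p of 0.049, as the only proteasome gene called in that setting, where 1.22% of all genes were. In the other 13 alternatives PSMB8 stayed above the threshold on adjusted p.

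PSMB9 encodes the inducible subunit that takes the place of PSMB6. It was at 46.3, 44.4 and 37.4 TPM in Amuc_0904 libraries, against 31.5, 33.1 and 36.1 TPM in buffer libraries. The groups did not overlap, but Amuc_0904 replicate 3 was close to buffer replicate 3. The mean of 42.7 ± 4.67 TPM in Amuc_0904 libraries was 1.27 times the buffer mean of 33.5 ± 2.31 TPM, the largest ratio of the 47 genes (log2 fold change 0.34, SE 0.10, 95% interval 0.12 to 0.55, limma adjusted p = 0.11). For PSMB9 with the GC trend removed it was 0.30 (limma adjusted p = 0.18) and the groups overlapped.

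PSMB10 encodes the inducible trypsin-like subunit. Its values were 75.7, 80.5 and 68.2 TPM in Amuc_0904 libraries, against 66.5, 64.2 and 67.2 TPM in buffer libraries. Amuc_0904 replicate 3 stood just above the highest buffer library. The log2 fold change was 0.18 (SE 0.07, 95% interval 0.01 to 0.34, limma adjusted p = 0.22), and 0.28 after GC removal (limma adjusted p = 0.082). PSMB10 has the most GC-rich transcript of the 5, at 60.1%.

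PSME1 and PSME2 encode the alpha and beta subunits of the PA28 cap, which opens the core without ATP. PSME2 was at 325, 304 and 292 TPM in Amuc_0904 libraries, against 280, 260 and 268 TPM in buffer libraries. The groups were apart (log2 fold change 0.19, SE 0.06, 95% interval 0.05 to 0.33, limma adjusted p = 0.14). PSME1 was at 142, 134 and 159 TPM in Amuc_0904 libraries, against 135, 128 and 125 TPM in buffer libraries. Here Amuc_0904 replicate 2 fell within the buffer range, and replicate 3 was the highest (log2 fold change 0.16, 95% interval -0.01 to 0.33, limma adjusted p = 0.26). Without Amuc_0904 replicate 3 the log2 fold change of PSME1 was 0.09. With the GC trend removed the log2 fold changes were 0.20 for PSME2 and 0.19 for PSME1, with limma adjusted p of 0.13 and 0.22.

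**Figure D2:**
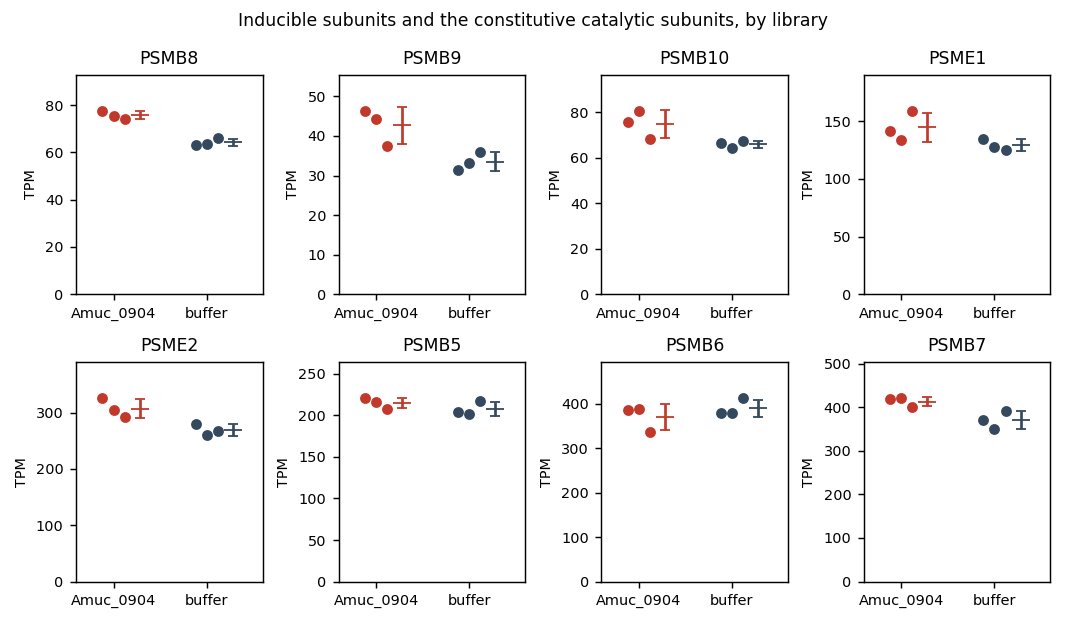
TPM of the 5 inducible genes and of the constitutive catalytic genes PSMB5, PSMB6 and PSMB7 in each library; the bar beside each group is its mean and SD (n = 3). Amuc_0904 libraries lie above all buffer libraries for PSMB8, PSMB9, PSMB10, PSME2 and PSMB7, and overlap them for PSME1, PSMB5 and PSMB6.

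Among the constitutive catalytic genes, PSMB5 (chymotrypsin-like) was at 220.4, 216 and 208 TPM in Amuc_0904 libraries, against 205, 201 and 218 TPM in buffer libraries. PSMB6 (caspase-like) was at 386, 388 and 336 TPM in Amuc_0904 libraries, against 379, 379 and 412 TPM in buffer libraries. Both overlapped between the groups, with log2 fold changes of 0.05 (95% interval -0.08 to 0.18) and -0.08 (95% interval -0.24 to 0.09). PSMB7 (trypsin-like) was at 418, 420.2 and 401 TPM in Amuc_0904 libraries, against 371, 349 and 391 TPM in buffer libraries. PSMB7 was the catalytic gene of the constitutive set whose groups did not overlap (log2 fold change 0.16, 95% interval 0.02 to 0.29, limma adjusted p = 0.18), and it kept a log2 fold change of 0.16 after GC removal.

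The ratio of each inducible gene to the subunit it replaces does not depend on library scaling. PSMB8 made up 26.0%, 25.9% and 26.2% of the summed TPM of PSMB8 and PSMB5 in Amuc_0904 libraries, against 23.6%, 24.0% and 23.3% in buffer libraries. PSMB9 made up 10.7%, 10.2% and 10.01% of its pair with PSMB6 in Amuc_0904 libraries, against 7.68%, 8.02% and 8.04% in buffer libraries. In both pairs every Amuc_0904 library lay above every buffer library. PSMB10 made up 15.3%, 16.1% and 14.5% of its pair with PSMB7 in Amuc_0904 libraries, against 15.2%, 15.5% and 14.7% in buffer libraries, so these groups overlapped. The difference in mean log2 ratio was 0.19 for PSMB8, 0.42 for PSMB9 and 0.02 for PSMB10, with pooled SDs of 0.02, 0.05 and 0.07. Two-sided exact permutation tests gave p = 0.10 for PSMB8 and PSMB9, the smallest p that 3 libraries against 3 allow, and p = 0.90 for PSMB10. Adjusted over the 3 pairs, the exact permutation p was 0.15, 0.15 and 0.90. After GC removal the differences were 0.20, 0.33 and 0.12, and the Amuc_0904 libraries were above all buffer libraries in each pair.

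**Figure D3:**
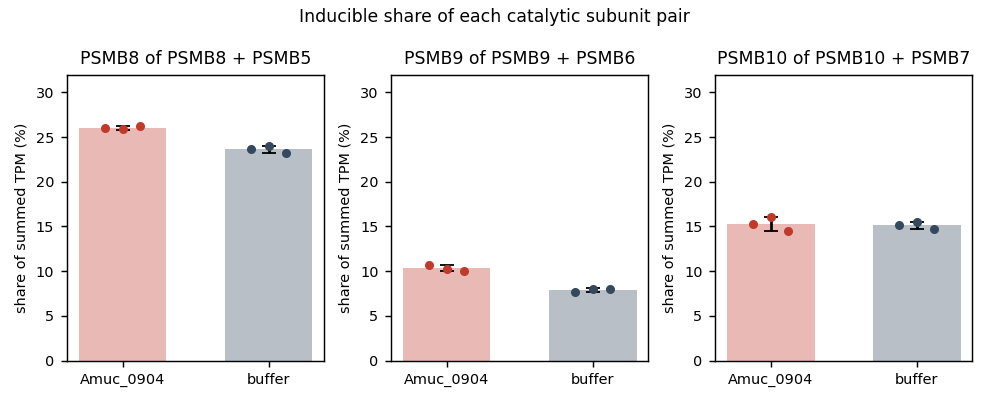
Share of each inducible catalytic gene in the summed TPM of its pair, in percent, by library; bars are group means, error bars SD (n = 3) and points libraries. The groups are apart for PSMB8 with PSMB5 and for PSMB9 with PSMB6, and overlap for PSMB10 with PSMB7.

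PSMB8 (ENSG00000204264) lies in the MHC region of chromosome 6 from 32840717 to 32844703 on the minus strand (GENCODE 29, GRCh38), and PSMB9 (ENSG00000240065) from 32844136 to 32859585 on the plus strand. The annotated spans of PSMB8 and PSMB9 overlap each other, PSMB8-AS1 overlaps both, and TAP1 overlaps PSMB9 on the other strand. The strand protocol of the libraries is not given in the sources used here, so reads of overlapping genes could be shared. TAP1, a peptide transporter gene transcribed away from PSMB9, was at 30.7, 32.8 and 31.3 TPM in Amuc_0904 libraries, against 31.1, 29.7 and 31.2 TPM in buffer libraries. These TAP1 groups overlapped, unlike those of PSMB9, and the difference between the genes was not tested. PSMB10 lies on chromosome 16 from 67934502 to 67937087. PSME1 (24136158 to 24138967) and PSME2 (24143362 to 24147570) are neighbours on chromosome 14.

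The alpha ring forms the gate of the core. Of its 8 tested genes 0 passed the adjusted threshold, which 1.37% of all tested genes passed. In 5 of the 8 all Amuc_0904 libraries lay above all buffer libraries (7.00% of all tested genes). Positive log2 fold changes were found in 6 of the 8, against 37.5% of all tested genes. Those 6 were PSMA1 to PSMA6, with log2 fold changes between 0.14 and 0.20. PSMA4 had the largest, at 367, 344 and 383 TPM in Amuc_0904 libraries, against 345, 291 and 318 TPM in buffer libraries. Amuc_0904 replicate 2 lay just under buffer replicate 1, so the PSMA4 groups overlapped (log2 fold change 0.20, SE 0.08, limma adjusted p = 0.18, and 0.12 on the log2 scale after GC removal). PSMA3 was at 322, 311 and 300.1 TPM in Amuc_0904 libraries, against 293, 254 and 284 TPM in buffer libraries, and its groups were apart. The log2 fold change of PSMA3 was 0.17, against 0.11 without buffer replicate 2. PSMA5, the least abundant alpha gene apart from PSMA8, was at 61.5, 56.1 and 54.7 TPM in Amuc_0904 libraries, against 52.9, 47.2 and 51.3 TPM in buffer libraries. PSMA5 groups did not overlap either. After GC removal the log2 fold changes were 0.05 for PSMA3 and 0.07 for PSMA5, and both had overlapping groups. In PSMA1 to PSMA6 buffer replicate 2 was the lowest of all 6 libraries.

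These alpha genes had AT-rich transcripts. The median transcript GC content was 39.4% for PSMA1 to PSMA6, 53.2% for the inducible genes and 49.3% for all tested genes. After GC removal the median log2 fold change of PSMA1 to PSMA6 was 0.06 in place of 0.17. That of the inducible genes was 0.27 in place of 0.19, and that of all tested genes was -0.07 in place of -0.06. Among the 8 alpha genes, only PSMA1 then had all Amuc_0904 libraries above all buffer libraries, which 6.17% of all genes did, while 3 of the 5 inducible genes did (PSMB8, PSMB10 and PSME2). PSMA7, a GC-rich alpha gene at 55.5%, was at 887, 908 and 753 TPM in Amuc_0904 libraries, against 802, 869 and 925 TPM in buffer libraries, with overlapping groups. PSMA8 was between 15.2 and 17.2 TPM in Amuc_0904 libraries and between 16.6 and 17.0 TPM in buffer libraries. Its log2 fold change was -0.06 with overlapping groups, and -0.18 after GC removal with all Amuc_0904 libraries below (19.5% of all genes). DHFRP1 overlaps PSMA8 on the other strand.

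**Figure D4:**
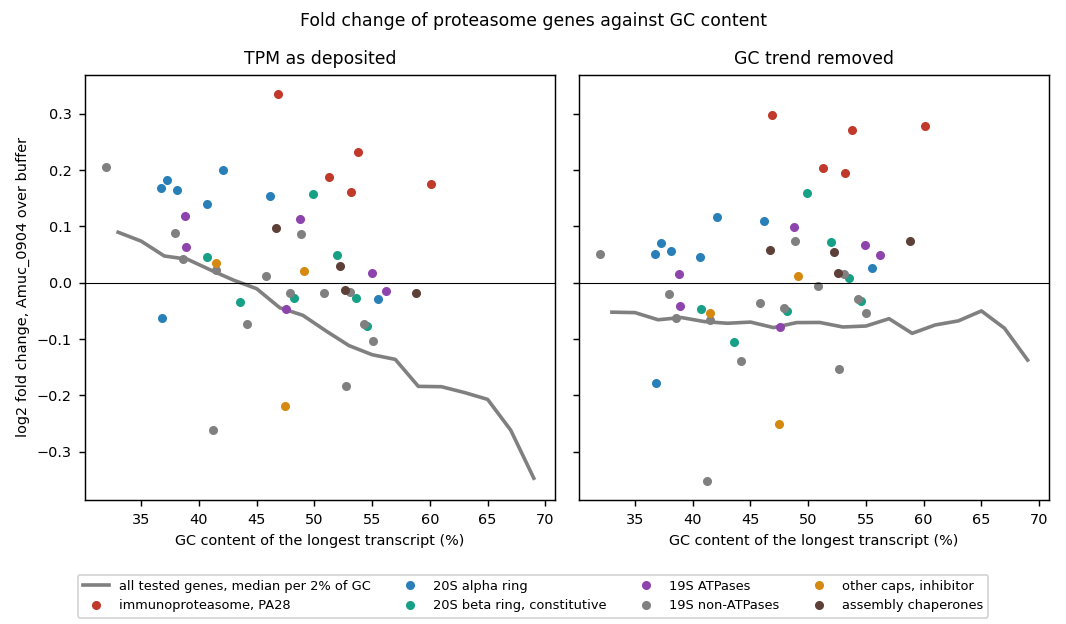
Log2 fold change (Amuc_0904 over buffer) of the 47 tested proteasome genes against the GC content of each gene's longest transcript, for TPM as deposited (left) and after each library's GC trend was removed (right); the grey line is the median of all tested genes per bin of GC content. Across the 47 genes Pearson's r was -0.22 before and 0.31 after removal, and the inducible genes lie above the grey line in both panels.

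The 4 non-catalytic beta ring genes, PSMB1 to PSMB4, had log2 fold changes between -0.03 and 0.05 with overlapping groups. After GC removal all Amuc_0904 libraries lay below all buffer libraries for PSMB1 (log2 fold change -0.05) and PSMB2 (-0.10). The same held for 19.5% of all genes. PSMB1 averaged 403 ± 13.1 TPM in Amuc_0904 and 390 ± 9.24 TPM in buffer libraries, and PSMB4 averaged 496 ± 23.9 TPM in Amuc_0904 and 505 ± 21.6 TPM in buffer libraries. With PSMB5 to PSMB7 included, 0 of 7 genes passed, and the median log2 fold change was -0.03.

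The 19S ATPase ring unfolds substrates. Its 6 genes had log2 fold changes between -0.05 and 0.12, 0 passed, and every gene overlapped between the groups. PSMC6 was highest, at 122, 118 and 132 TPM in Amuc_0904 libraries, against 129, 105 and 109 TPM in buffer libraries. PSMC5 was lowest, at 258, 268 and 244 TPM in Amuc_0904 libraries, against 267, 268 and 260.2 TPM in buffer libraries. The log2 fold change of PSMC6 was 0.12, and it was 0.02 after GC removal and 0.06 without buffer replicate 2. The interval of PSMC6 was -0.08 to 0.32 and that of PSMC5 -0.18 to 0.08 on the log2 scale.

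PSMC1 is the ATPase gene with the least certain level, because processed copies of it were listed with TPM of their own. Of 42 pseudogenes of PSM genes in the table, 40 were below 1 TPM in every library, and the others were PSMC1P1 and PSMC1P5. PSMC1P5 was at 40.5, 42.2 and 85.04 TPM in Amuc_0904 libraries, against 30.0, 126 and 108 TPM in buffer libraries. PSMC1 itself was at 432, 442 and 496 TPM in Amuc_0904 libraries, against 470, 399 and 400 TPM in buffer libraries. Amuc_0904 replicate 3 was highest and the groups overlapped, with a log2 fold change of 0.11, or 0.05 without that library. Summed with both copies, PSMC1 was at 552 ± 59.3 TPM in Amuc_0904 and 552 ± 12.3 TPM in buffer libraries.

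The 14 PSMD genes encode the other 19S subunits and assembly chaperones. None passed, 6 log2 fold changes were positive (37.5% of all tested genes were) and 8 negative, and their median was -0.02. PSMD14, the deubiquitinase that strips ubiquitin chains, was at 155, 151 and 163 TPM in Amuc_0904 libraries, against 145, 130 and 133 TPM in buffer libraries. The PSMD14 groups were apart (log2 fold change 0.21, SE 0.06, limma adjusted p = 0.12), but PSMD14 has the most AT-rich transcript of the 47 genes (31.96% GC). Its log2 fold change was 0.05 after GC removal, with all Amuc_0904 libraries still above all buffer libraries (6.17% of all genes). PSMD12 groups were also apart, at 94.4 ± 1.40 TPM in Amuc_0904 and 88.8 ± 3.54 TPM in buffer libraries. For PSMD12 the log2 fold change was 0.09, and it was -0.02 after GC removal, when its groups overlapped.

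PSMD3 and PSMD2, large scaffold subunits, were below every buffer library in all Amuc_0904 libraries in TPM as deposited. The same held for 20.1% of all tested genes. PSMD3 was at 186, 200 and 176 TPM in Amuc_0904 libraries, against 209, 219 and 210.3 TPM in buffer libraries (log2 fold change -0.18, SE 0.06, limma adjusted p = 0.15). With the GC trend removed PSMD3 had a log2 fold change of -0.15. PSMD2 averaged 411 ± 7.57 TPM in Amuc_0904 and 432 ± 10.3 TPM in buffer libraries. For PSMD2 the log2 fold change was -0.07, and it was -0.03 after GC removal, when its groups overlapped.

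PSMD5, a chaperone of the 19S base, was the most variable proteasome gene between libraries. It was at 42.9, 30.2 and 93.4 TPM in Amuc_0904 replicates 1 to 3, against 66.1, 62.8 and 51.0 TPM in buffer replicates 1 to 3. The Amuc_0904 libraries thus held both the highest value and the lowest values of the gene. The log2 fold change was -0.26 with an SE of 0.34, -0.71 without Amuc_0904 replicate 3 (limma adjusted p = 0.11) and 0.09 without Amuc_0904 replicate 2. CUTALP overlaps PSMD5 on the other strand.

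Of the other caps, PSME3 (PA28 gamma, a nuclear cap) averaged 136 ± 5.38 TPM in Amuc_0904 and 134 ± 7.33 TPM in buffer libraries. PSME4 (PA200) averaged 26.0 ± 1.92 TPM in Amuc_0904 and 25.3 ± 1.76 TPM in buffer libraries. PSMF1 was at 94.4, 115 and 121 TPM in Amuc_0904 libraries, against 130, 131 and 122.8 TPM in buffer libraries. All Amuc_0904 values of PSMF1 were below the buffer values, as in 20.1% of all tested genes. Replicate 1 was the lowest (log2 fold change -0.22, SE 0.09, 95% interval -0.43 to -0.01, limma adjusted p = 0.23). The log2 fold change of PSMF1 was -0.11 without Amuc_0904 replicate 1 and -0.25 after GC removal.

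The chaperones of core assembly, PSMG1 to PSMG4, had log2 fold changes between -0.02 and 0.10, and the groups overlapped in all 4. PSMG1 averaged 98.9 ± 6.58 TPM in Amuc_0904 and 92.3 ± 5.89 TPM in buffer libraries (log2 fold change 0.10, and 0.06 after GC removal). PSMG3 was at 83.7, 88.6 and 67.5 TPM in Amuc_0904 libraries, against 78.3, 79.0 and 84.3 TPM in buffer libraries. PSMG4, which holds the ISRE letters shared by PSMB8, PSMB10, PSME1 and PSME2, was at 60.3, 70.8 and 50.02 TPM in Amuc_0904 libraries, against 59.9, 55.7 and 65.8 TPM in buffer libraries. In both PSMG3 and PSMG4 Amuc_0904 replicate 2 was the highest and replicate 3 the lowest library of all 6.

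**Figure D5:**
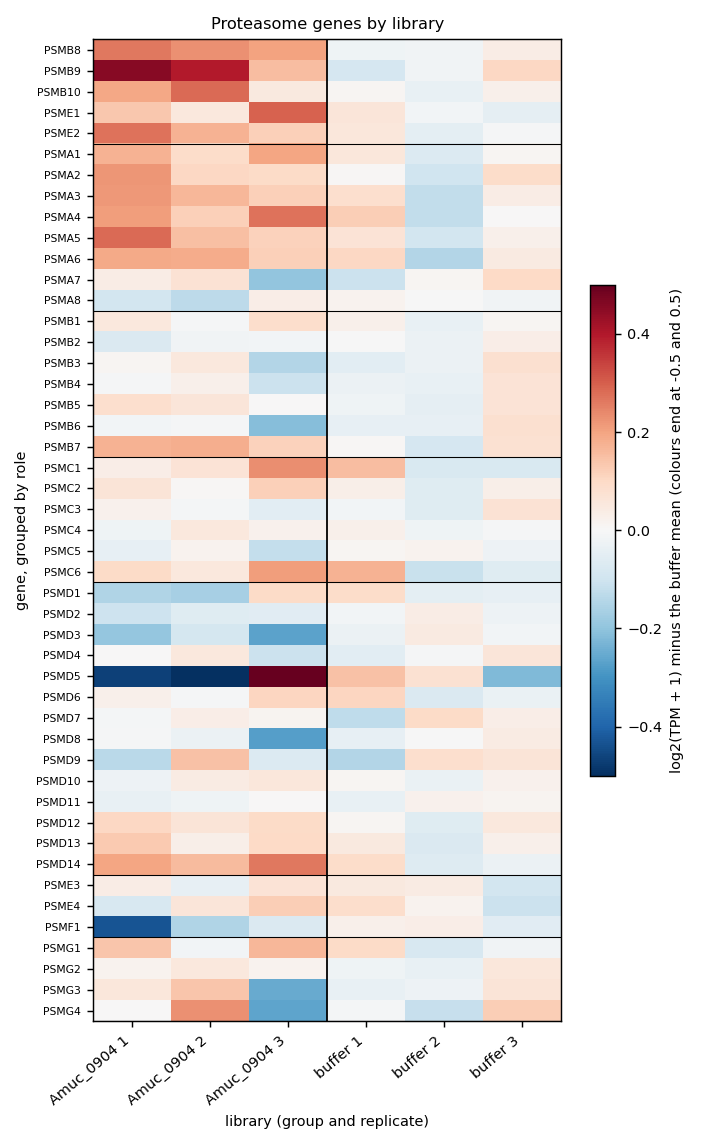
Log2(TPM + 1) of each tested proteasome gene in each library minus its mean in buffer libraries, with genes grouped by role (inducible genes at the top, then alpha ring, beta ring, 19S ATPases, 19S non-ATPases, other caps and inhibitor, and assembly chaperones). The inducible genes are red in all Amuc_0904 libraries, PSMA1 to PSMA6 likewise, and PSMD5 ranges beyond the colour scale in both directions within Amuc_0904.

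Summed over all members, proteasome transcripts made up 9834 ± 151 TPM in Amuc_0904 and 9592 ± 214 TPM in buffer libraries. The 5 inducible genes summed to 666, 638 and 630.3 TPM in Amuc_0904 libraries, against 576, 549 and 562 TPM in buffer libraries. These inducible sums were 14.7% higher on average, with groups apart. The other genes summed to 9264, 9275 and 9030 TPM in Amuc_0904 libraries, against 9075, 8806 and 9208 TPM in buffer libraries, and these groups overlapped.

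Genes that work with the proteasome were described from lists. Of 19 partners and shuttles 0 passed. Among them 7 log2 fold changes were positive and 12 negative, near the 37.5% positive among all tested genes. Their median was -0.05, and -0.11 after GC removal. POMP, the chaperone that matures new cores, was at 236, 211 and 217 TPM in Amuc_0904 libraries, against 199, 168 and 195 TPM in buffer libraries. The POMP groups were apart (log2 fold change 0.24, SE 0.08, limma adjusted p = 0.14). Its transcript is AT-rich (34.6% GC), and no value of POMP after GC removal is given here. NPLOC4, a cofactor of the segregase VCP, was lowest, at 35.5, 38.9 and 40.7 TPM in Amuc_0904 libraries, against 47.8, 49.3 and 45.2 TPM in buffer libraries (log2 fold change -0.30, limma adjusted p = 0.083).

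Of 13 genes that control transcription of proteasome genes 0 passed. NFE2L1, the factor that raises subunit transcription when the proteasome is impaired, was at 68.0, 66.0 and 73.0 TPM in Amuc_0904 libraries, against 75.7, 72.7 and 67.9 TPM in buffer libraries, with overlapping groups. NFYB had the highest log2 fold change of that list (0.15) and MAFG, a partner of NFE2L1, the lowest (-0.29, limma adjusted p = 0.10). Of 6 ubiquitin genes and activating enzymes 0 passed, with RPS27A highest (log2 fold change 0.20) and UBA1 lowest (-0.19). The transcripts of MAFG (57.2% GC) and UBA1 (56.95% GC) are GC-rich, and no value of either after GC removal is given here.

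Of 14 genes of the signals that induce the immunoproteasome 0 passed, and the median log2 fold change was 0.06. IRF2 was highest, at 18.4, 17.2 and 20.04 TPM in Amuc_0904 libraries, against 14.8, 12.8 and 15.4 TPM in buffer libraries (log2 fold change 0.35, limma adjusted p = 0.11). RELA, an NF-kB subunit gene, was lowest, at 48.8, 47.4 and 50.3 TPM in Amuc_0904 libraries, against 59.4, 64.5 and 58.2 TPM in buffer libraries (log2 fold change -0.31, limma adjusted p = 0.063). The RELA transcript is GC-rich (57.1% GC), and no value of RELA after GC removal is given here. IRF1, an interferon regulatory factor, was at 24.0, 72.5 and 32.3 TPM in Amuc_0904 libraries, against 35.8, 48.0 and 26.9 TPM in buffer libraries. The buffer range of IRF1 lay inside the Amuc_0904 range.

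Of 14 genes that supply peptides to MHC class I, 1 rose (B2M), 0 fell and 13 did not pass, against 0.368% of all genes that rose and 0.999% that fell. ERAP1, the peptidase that trims peptides in the endoplasmic reticulum, had the highest log2 fold change, at 18.1, 17.1 and 18.1 TPM in Amuc_0904 libraries, against 13.9, 14.8 and 13.1 TPM in buffer libraries (log2 fold change 0.33, limma adjusted p = 0.083). The ERAP1 transcript is AT-rich (39.7% GC), and no value of ERAP1 after GC removal is given here. PDIA3, a chaperone of peptide loading, had the lowest, with a log2 fold change of -0.19. B2M, the MHC class I light chain, was at 1237, 1192 and 1234 TPM in Amuc_0904 libraries, against 1038, 927 and 976 TPM in buffer libraries, with groups apart. B2M rose with a log2 fold change of 0.32 (SE 0.06, limma adjusted p = 0.047). It passed the threshold in 2 of 14 alternatives, and over the 14 the log2 fold changes lay between 0.22 and 0.40 and adjusted p between 0.043 and 0.17. The B2M transcript is AT-rich (40.6% GC), and after GC removal its log2 fold change was 0.22 (limma adjusted p = 0.073).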

How the data were processed

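RNA of 6 SW480 libraries was sequenced on an Illumina instrument. The authors deposited a gene table in TPM, quantified with RSEM per the series' design text, with values rounded to 2 decimals and summing to between 996107 and 997036 per library. The submitters' processing notes name HISAT2, StringTie, RSEM and edgeR with no roles, and a mouse build (GRCm38.p6), while the gene identifiers are human, so the annotation behind the values is uncertain. TPM gives no depth, so precision rests on 3 libraries per group.

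Values were taken as log2(TPM + 1), and the 14421 genes with at least 1 TPM in at least 3 libraries were fitted with limma 3.58.1 in R 4.3.3 (trend, two-sided, Benjamini-Hochberg over all tested genes). On this log2 scale the pseudocount shrinks the differences of low genes. Ratios within a library were tested with SciPy 1.17.1. GC content came from the longest GENCODE 29 transcript, for 99.0% of tested genes, and its trend was removed by loess (span 0.3). The workflow was checked on simulated data. The planted changes were larger than those of the proteasome genes, with no GC difference between libraries. That check therefore does not cover changes as small as those described here.

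The members and lists were chosen with earlier results of these data known. Genes named by rule were the 5 inducible genes, PSMB5 to PSMB7, and the highest and lowest log2 fold change of each group; members named beyond these were picked with values in view. Alternatives were another pseudocount, no filter, centring, quantile normalization, GC removal, mitochondrial and ribosomal protein genes left out, the replicate block and each library left out. A result for 1 gene of a list is not reported here. Figures were drawn with matplotlib 3.10.9.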

Additional observations from a re-analysis of the deposited data

How the results depend on the processing

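All genes past the threshold numbered 197, and 9 with no filter on low TPM, 85 with centring, 102 with quantile normalization, and between 33 and 110 with a library left out. Without Amuc_0904 replicate 3 and buffer replicate 2, an alternative chosen after seeing the data, 13 passed. Proteasome genes past it numbered 0 in every setting except GC removal, which gave 1 (PSMB8, just under the threshold). The median log2 fold change of the inducible genes, 0.188, was 0.268 with centring and 0.271 with GC removal, and between 0.163 and 0.239 with a library left out. That of the other proteasome genes, 0.019, was 0.1 with centring. The difference of these medians, 0.168, was 0.260 with GC removal. The log2 ratio of PSMB10 to PSMB7 differed by 0.020, and by between -0.023 and 0.063 with a library left out. Those of PSMB8 to PSMB5 (between 0.172 and 0.201) and PSMB9 to PSMB6 (between 0.391 and 0.444) kept their direction with each library left out.

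Of the 47 genes, 25 took the other sign in at least 1 alternative, none past the threshold, among them 15 with centring, 7 with quantile normalization, 13 with GC removal and 6 without mitochondrial and ribosomal protein genes. Among the genes named by rule, those with centring were PSMA8 (0.018), PSMB6 (0.004), PSMC5 (0.033) and PSMG3 (0.061). With quantile normalization they were PSMA8 (0.019) and PSMG3 (0.039), and with GC removal PSME4 (-0.054) and PSMG3 (0.074). PSMG3 was also at 0.008 without mitochondrial and ribosomal protein genes. Of the other members described, PSMA7 (0.051), PSMB2 (0.047), PSMB3 (0.053), PSMB4 (0.053), PSMD2 (0.008) and PSMG4 (0.068) changed sign with centring. PSMB2 (0.029) and PSMG4 (0.046) did so with quantile normalization, and PSMA7 (0.026), PSMB1 (-0.047), PSMB3 (0.009), PSMD12 (-0.021) and PSMG4 (0.017) with GC removal. PSMG4 was at 0.014 without mitochondrial and ribosomal protein genes. With a library left out up to 10 genes took the other sign. PSMD5 then lay between -0.712 and 0.087, PSME4 between -0.018 and 0.091 and PSMG3 between -0.097 and 0.097. Without Amuc_0904 replicate 3 and buffer replicate 2, PSME4 was at -0.001 and PSMG3 at 0.083. The cause was not tested. The 5 inducible genes and PSMA1 to PSMA6 stayed positive in all 14 alternatives. So did PSMB5, PSMB7, PSMC1, PSMC6, PSMD13, PSMD14, PSMG1 and PSMG2, while PSMD3, PSMD8 and PSMF1 stayed negative.

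Same-numbered libraries showed no sign of a shared deviation: their deviations from the group means correlated at -0.029, 0.075 and -0.094. With 3 libraries per group these values cannot show whether the libraries were prepared in pairs. With the replicate number as a block, 80 genes passed and 0 of them were proteasome genes, and 2 of 6 libraries correlated best with their own number. The unknown depth limits what can be said of each value.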
